A study of Mus musculus with 6 samples.

Results

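Rbm38 and 9 genes of the p53 pathway, Trp53, Mdm2, Mdm4, Ccng1, Trp53inp1, Sesn1, Zmat3, Phlda3 and Aen, were described in cultured mouse fetal liver progenitors with a lowered level of Samd14. The 10 genes were picked by name out of 24376 gene IDs, to ask whether a higher level of Rbm38 went together with higher levels of other p53 target genes. Rbm38 itself was taken up because it was higher in the shSamd14 libraries, so its difference between the groups is given as a description with no test. All 10 genes had an ID in the deposited tables and passed the filter on low counts.

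RNA was sequenced from 3 libraries that received a retroviral short hairpin RNA (shRNA) against Samd14 and from 3 libraries that received a control shRNA, whose target is not given in the sources used here. Such a hairpin is processed in the cell and directs the breakdown of matching messenger RNA. In both groups the cells were C57BL/6 blood progenitors enriched from E14.5 fetal liver, infected straight after isolation and cultured for 3 days. Cells without CD71 and Ter119, which mark maturing red cells, were then isolated, 200000 per library. Both groups thus carried a hairpin and a retrovirus, no uninfected cells are among the samples, and neither animals nor cultures are told apart in the labels, so that a p-value reflects only how these libraries vary, which may be technical.

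p53, encoded by Trp53, is a transcription factor that is stabilised after DNA damage and other stress and then raises genes of growth arrest, DNA repair and cell death. Its level is held down by Mdm2, a ubiquitin ligase, and its activity by the related Mdm4, and since Mdm2 is itself a p53 target the pair form a feedback loop. Rbm38, also called RNPC1, is an RNA-binding protein with an RNA recognition motif. It is a p53 target that binds the RNAs of p21 (Cdkn1a), Mdm2 and Trp53, and it is also a regulator of splicing in late erythroid cells.

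The libraries held 23862151 to 26462797 expected counts in the shSamd14 group and 20584169 to 24069711 in the control group. Samd14 had 41.9, 38.8 and 39.4 CPM (counts scaled to library size) in the shSamd14 libraries, against 82.0, 82.0 and 83.8 CPM in the control libraries, a log2 fold change of -1.05 (SE 0.06, edgeR adjusted p = 4.69e-07). The sorted cells still held Tfrc RNA, which encodes CD71, at 823 ± 48.0 CPM in shSamd14 and 933 ± 57.2 CPM in control libraries (SD, n = 3 each). With the quasi-likelihood F test of edgeR and adjustment by Benjamini and Hochberg, called the edgeR test from here on, 327 of 12670 tested genes had an adjusted p under 0.05, which is 2.58%. Of all tested genes, 1.32% were higher and 1.26% lower in shSamd14, with a median log2 fold change of 0.006.

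Rbm38 (ENSMUSG00000027510; chromosome 2, 173020498 to 173034734, plus strand, GRCm38) had 99.1, 91.2 and 93.1 CPM in the shSamd14 libraries, against 47.7, 52.1 and 58.1 CPM in the control libraries. All 3 shSamd14 libraries lay above all 3 control libraries, with a wide gap between the lowest of the first and the highest of the second. The values rested on 2176 to 2515 expected counts in shSamd14 and 989 to 1397 in control libraries. Rbm38 averaged 94.5 ± 4.13 CPM in shSamd14 and 52.7 ± 5.21 CPM in control libraries (SD, n = 3 each), 1.79-fold or 0.84 on the log2 scale (SE 0.07). Leaving out 1 library at a time gave log2 fold changes from 0.77 to 0.91. Among all tested genes 0.726% differed by at least this much in either direction. As Rbm38 was taken up for its rise, a small share follows from the choice and is no test.

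In TPM, the authors' values per transcript length, Rbm38 had 115.9, 104.6 and 121.2 in the shSamd14 libraries, against 59.3, 54.2 and 71.0 in the control libraries. The level of Rbm38 in TPM ranked 4 among the 10 genes in shSamd14 and 7 in control libraries. It overlapped with that of its neighbour in this order in both groups, Mdm2 in shSamd14 and Phlda3 in control libraries. The genes Gm14453 and Gm20490 are annotated over parts of Rbm38 on the opposite strand, and neither is among the gene IDs used. The overlap was read over whole genes, introns included, so whether exons overlap was not tested. As the use of strand is not given in the sources used here, reads of shared stretches cannot be told apart. Other annotated genes also overlap Mdm4, Sesn1 and Cdkn1a.

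The 3′ untranslated region (UTR) of Rbm38 held the 7-base word CTGATTA, near its end. The words CTGATTA and TGATTAA, and CAAGTGT and AAGTGTA, had come out of an earlier search of these same data, the first pair in genes that rose and the second in genes that fell, so their presence in Rbm38 is no independent evidence. The sites of the first pair in the 10 genes are shown because Rbm38 shares them with members that did not pass the test, with the word in capitals, 5′ to 3′ on the strand of the gene (GENCODE M21 transcripts, GRCm38):
Rbm38 (chr2:173034684-173034712, plus strand): attagaatgttCTGATTAtaaaaaataaa
Mdm4 (chr1:132986224-132986252, minus strand): gtgtttttgtgTGATTAAacagttttcat
Ccng1 (chr11:40750193-40750221, minus strand): ttatctttttaTGATTAAaaacaattttt
Trp53inp1 (chr4:11171650-11171678, plus strand): taacactggctCTGATTAggtgccaggca
Zmat3 (chr3:32338004-32338032, minus strand): catacatgtacCTGATTAcgtcttcctgt
Aen (chr7:78908087-78908115, plus strand): cccactgtccaCTGATTAcagaaagcgtt
The longest annotated 3′ UTR was 925 bases long for Rbm38, and the site covers its bases 886 to 892. The words CTGATTA and TGATTAA can overlap each other by 6 bases, and they were read on the sense strand only. CTGATTA or TGATTAA was present in 14.4% of the 11844 tested genes with a searched UTR. The share was 59.3% of the genes that rose in shSamd14 and 13.8% of those that did not pass. The other 5 genes with a site have longer UTRs, from 2316 to 6692 bases, and among tested genes with 2000 to 7000 bases of UTR the share was 28.0%. The second pair was found in Mdm2, Mdm4 and Zmat3 and not in the longest UTR of Rbm38.

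**Figure D1:**
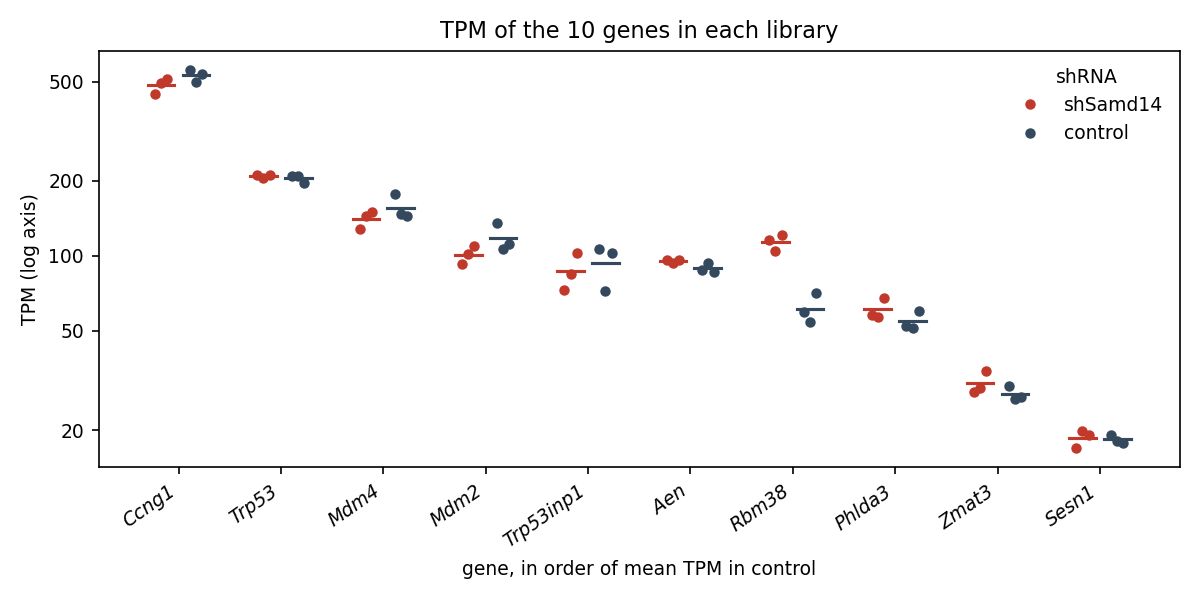
TPM of the 10 genes (log axis) in each of the 3 shSamd14 libraries (red, left) and the 3 control libraries (dark, right), with a line at each group's mean. Rbm38 lay at 104.6 to 121.2 TPM in shSamd14 and at 54.2 to 71.0 TPM in control libraries, while the groups of the other 9 genes overlapped on this scale.

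Of the 9 other genes, none had an adjusted p under 0.05 in the edgeR test, where 2.58% of all tested genes did. DESeq2 and limma-voom called none of them either, and 3 of the 9 had an unadjusted p under 0.05 in the edgeR test, Mdm2, Mdm4 and Ccng1, where 15% of all tested genes did. These 3 genes had lower values in shSamd14, the opposite direction to Rbm38. The 9 log2 fold changes ran from -0.23 for Mdm2 to 0.14 for Phlda3, with a median of -0.004, and 4 were positive and 5 negative. The highest upper limit of their 95% intervals, taken gene by gene, was 0.32 on the log2 scale, for Phlda3. In 4 of the 9 the groups did not overlap in CPM, Mdm2, Mdm4 and Ccng1 below and Zmat3 above, where this held for 20.7% of all tested genes, 10.2% below and 10.5% above.

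**Figure D2:**
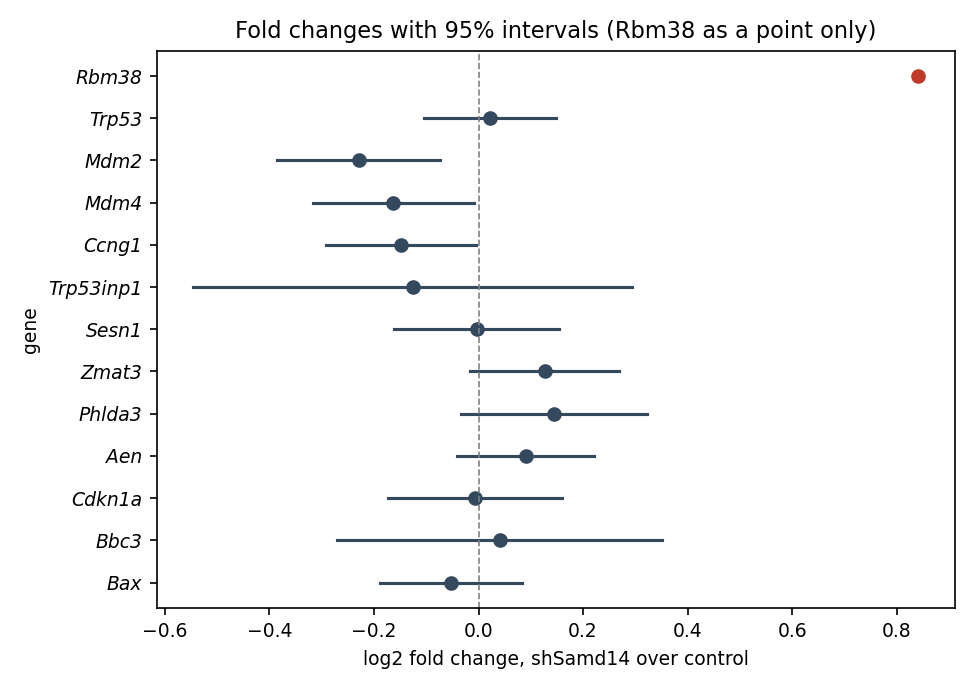
Log2 fold change, shSamd14 over control, of the 10 genes and of Cdkn1a, Bbc3 and Bax, with the 95% interval of each from the edgeR fit. Rbm38 is drawn as a point at 0.84 without an interval, and the intervals of the others end between -0.55 (Trp53inp1) and 0.35 (Bbc3).

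Trp53 (ENSMUSG00000059552; chromosome 11, 69580359 to 69591873, plus strand) had 228, 215 and 213 CPM in the shSamd14 libraries, against 212, 224 and 209.6 CPM in the control libraries. The groups overlapped in CPM because control replicate 2 lay among the shSamd14 libraries. The log2 fold change was 0.02 (SE 0.06, 95% interval -0.10 to 0.15, edgeR adjusted p = 0.903). The level of Trp53 in TPM, 209.4 ± 3.02 in shSamd14 and 205 ± 7.64 in control libraries (SD, n = 3 each), was the second highest of the 10 genes in both groups.

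Mdm2 (ENSMUSG00000020184; chromosome 10, 117688875 to 117710758, minus strand) had 176, 187 and 197 CPM in the shSamd14 libraries, against 243, 202 and 212 CPM in the control libraries. The shSamd14 libraries all lay below the control libraries, with control replicate 1 well above the rest, whereas in TPM the groups overlapped. The log2 fold change was -0.23 (SE 0.07, 95% interval -0.39 to -0.07), which did not pass (edgeR adjusted p = 0.132). Without control replicate 1 it was -0.15 (adjusted p = 0.459), against -0.29 (adjusted p = 0.0771) without control replicate 2, the lowest and the highest size in the 6 edgeR fits that left out 1 library. With all libraries kept, the adjusted p of Mdm2 was 0.0722 in DESeq2. It ran from 0.0550 in edgeR with a block for the replicate number to 0.343 in limma on log2(TPM + 0.1).

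Mdm4 (ENSMUSG00000054387; chromosome 1, 132959484 to 133030561, minus strand) had 241, 266 and 272 CPM in the shSamd14 libraries, against 319, 277 and 276 CPM in the control libraries. The 2 groups came close to each other, and control replicate 1 was again the highest library. The log2 fold change was -0.16 (SE 0.07, edgeR adjusted p = 0.295), and -0.10 without control replicate 1. Mdm4 held a site of each word pair in its UTR.

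Ccng1 (ENSMUSG00000020326; chromosome 11, 40748552 to 40755311, minus strand), which encodes cyclin G1, a p53 target that acts back on Mdm2 through protein phosphatase 2A, had the highest level of the 10 genes in TPM. It had 969, 1033 and 1043 CPM in the shSamd14 libraries, against 1141, 1073 and 1161 CPM in the control libraries. All shSamd14 libraries lay below all control libraries by a small margin. The log2 fold change was -0.15 (SE 0.07, 95% interval -0.29 to -0.005, edgeR adjusted p = 0.312).

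Among the target genes of cell death and stress, Trp53inp1 (ENSMUSG00000028211; chromosome 4, 11156431 to 11174379, plus strand), a nuclear protein of p53-dependent apoptosis and of autophagy, varied most between libraries. It had 244, 275 and 323 CPM in the shSamd14 libraries, against 336, 241 and 342 CPM in the control libraries. The groups overlapped over nearly their whole range, and the log2 fold change of -0.13 had an SE of 0.17 (edgeR adjusted p = 0.791). Its 95% interval, from 0.685-fold to 1.23-fold, was the widest of the 9. The log2 fold change was -0.04 without shSamd14 replicate 1, -0.06 without control replicate 1, -0.05 without control replicate 3, -0.24 without shSamd14 replicate 3 and -0.27 without control replicate 2.

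Phlda3 (ENSMUSG00000041801; chromosome 1, 135766119 to 135769136, plus strand), which inhibits the kinase Akt at the membrane, had 49.9, 47.4 and 55.3 CPM in the shSamd14 libraries, against 42.5, 44.0 and 51.5 CPM in the control libraries. Control replicate 3 lay among the shSamd14 libraries. At 0.14 on the log2 scale (SE 0.08, edgeR adjusted p = 0.459) its difference was the highest of the 9. It was 0.08 without shSamd14 replicate 3, 0.09 without control replicate 1 and 0.23 without control replicate 3, and Zmat3 or Aen was higher in 4 of 6 leave-one-out fits. Aen (ENSMUSG00000030609; chromosome 7, 78895854 to 78911209, plus strand), a nuclease of p53-dependent apoptosis, had 129, 122 and 122 CPM in the shSamd14 libraries, against 112, 124 and 114 CPM in the control libraries. These overlapped, at a log2 fold change of 0.09 (SE 0.06, edgeR adjusted p = 0.545), which ran from 0.05 without shSamd14 replicate 1 to 0.14 without control replicate 2.

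Sesn1 (ENSMUSG00000038332; chromosome 10, 41809935 to 41908424, plus strand), a sestrin that restrains mTOR complex 1, had the lowest level of the 10 genes in TPM. It had 29.5, 33.1 and 30.7 CPM in the shSamd14 libraries, against 31.8, 31.5 and 30.1 CPM in the control libraries. No difference was visible, and the 95% interval of the fold change ran from 0.894 to 1.11 (edgeR adjusted p = 0.987).

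Zmat3 (ENSMUSG00000027663; chromosome 3, 32334792 to 32366014, minus strand), a zinc finger RNA-binding protein and p53 target that, like Rbm38, acts on other transcripts, had 135.7, 136.7 and 156 CPM in the shSamd14 libraries, against 135.6, 127 and 129.8 CPM in the control libraries. The groups did not overlap, though the lowest shSamd14 and the highest control library were nearly level. The log2 fold change was 0.13 (SE 0.07, edgeR adjusted p = 0.403), and 0.05 without shSamd14 replicate 3.

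**Figure D3:**
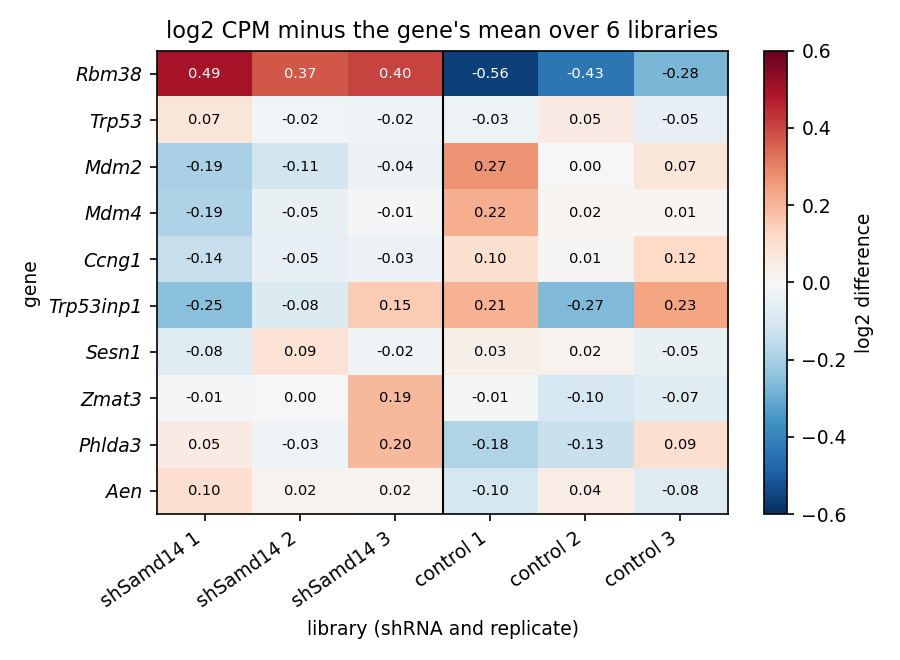
Log2 CPM of each of the 10 genes in each library minus the gene's own mean over the 6 libraries, shSamd14 libraries left and control libraries right of the line. Rbm38 is 0.37 to 0.49 above its mean in every shSamd14 library and 0.28 to 0.56 below it in every control library, and the other rows show no such split of comparable size.

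The 9 genes were also set against Rbm38 library by library. As Rbm38 was taken up for its rise, this measure largely restates each gene's difference between the groups. It is no separate evidence. The root mean square difference between the centred log2 CPM of Rbm38 and of another gene over the 6 libraries was smallest among them for Phlda3, at 0.36, and largest for Mdm2, at 0.56. The 5 tested genes closest to Rbm38 by this measure, predicted genes left out, were Borcs5 (0.05), Col11a2 (0.09), Saxo2 (0.09), Csgalnact1 (0.10) and Kifap3 (0.10). These 5 were picked for their likeness to Rbm38, so their higher values in shSamd14 follow from the choice. Saxo2 and Csgalnact1 did not pass in the edgeR test (adjusted p = 0.151 and 0.0978). Borcs5, a subunit of the complex that positions lysosomes, had 8.94 ± 0.0922 CPM in shSamd14 and 4.68 ± 0.569 CPM in control libraries (SD, n = 3 each). Kifap3, an adaptor of kinesin motors, had 16.0 ± 1.06 CPM in shSamd14 and 9.33 ± 0.709 CPM in control libraries. Saxo2, at 0.474 ± 0.0112 CPM in shSamd14 and 0.206 ± 0.0124 CPM in control libraries, rests on few reads, since 3 counts make 0.113 to 0.146 CPM. A word of the first pair stood in the longest 3′ UTR of Borcs5, Csgalnact1 and Kifap3 but not of Col11a2 or Saxo2. A word of the second pair, which had come out of genes that fell, stood in Borcs5, Saxo2 and Kifap3, although these had higher values in shSamd14. Antisense or intronic genes are annotated over Borcs5 and Csgalnact1, so their reads are uncertain.

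The weighted transcript length that the authors' software gives for each gene and library is a readout other than the level. For Rbm38 it was 1425, 1498 and 1362 bases in the shSamd14 libraries, against 1423, 1603 and 1375 bases in the control libraries. These overlapped (exact two-sided permutation test, p = 0.7, where 3 against 3 libraries cannot give less than 0.1). Ccng1, Trp53inp1 and Phlda3 had a single length in all libraries. The groups overlapped for the other 6 genes too, with exact p from 0.2 for Zmat3 to 1 for Mdm4. Over all 6703 tested genes whose length varied, the groups did not overlap for 11.4%.

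The promoters of the 10 genes were searched for the p53 half-site consensus, by name, in windows of 250 bases before to 50 bases after each annotated start. RefSeq (GRCm38.p6) gave windows for 8 of the 10 genes, all but Trp53inp1 and Zmat3. A match was found in 5 of these 8 genes, against 9.55% of all 27025 genes with a window. As the genes were picked as genes of the p53 pathway, the higher share is no independent evidence. The matches are shown, with the half-site in capitals, to set the genes with one beside Rbm38, whose window held none:
Aen (chr7:78895927-78895956, plus strand): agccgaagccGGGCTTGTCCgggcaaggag
Sesn1 (chr10:41887256-41887285, plus strand): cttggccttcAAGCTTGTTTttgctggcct
Mdm2 (chr10:117710925-117710954, minus strand): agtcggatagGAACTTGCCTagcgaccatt
Ccng1 (chr11:40755452-40755481, minus strand): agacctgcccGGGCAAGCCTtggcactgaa
Trp53 (chr11:69580274-69580303, plus strand): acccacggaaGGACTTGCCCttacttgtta
The consensus reads the same on both strands. A match is a description of the letters and does not show binding, and windows without one say nothing of sites elsewhere in a gene. None of the 5 genes with a match passed the edgeR test, where 2.58% of all tested genes did, and 5 genes are too few to set against that share.

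Further p53 targets were read beside the 10 genes. Cdkn1a, the cell cycle inhibitor p21 and the best known p53 target, whose RNA Rbm38 is known to bind, had 199.5, 179.8 and 205 CPM in the shSamd14 libraries, against 204, 173 and 211 CPM in the control libraries. The groups overlapped, with a 95% interval of the fold change from 0.886 to 1.12 (edgeR adjusted p = 0.977). The cell death genes Bbc3, which encodes PUMA, and Bax had log2 fold changes of 0.04 (SE 0.14, edgeR adjusted p = 0.930) and -0.05 (SE 0.06, edgeR adjusted p = 0.754). With 1 library left out, Bax ran from -0.11 without shSamd14 replicate 1 to -0.01 without shSamd14 replicate 2. Bax overlaps Gm45808 on the same strand, so its reads are uncertain. Of 61 tested p53 target genes outside the 10, none rose and 4 fell, or 6.56%, where 1.26% of all tested genes fell. The median log2 fold change of the 61 was -0.01, against 0.006 over all tested genes, with 27 positive and 34 negative.

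By role, 1 of 16 genes of arrest and signalling fell, or 6.25%, where 1.26% of all tested genes fell. This was Btg2, an antiproliferative gene, at 41.0 ± 2.85 CPM in shSamd14 and 56.4 ± 9.02 CPM in control libraries (SD, n = 3 each, edgeR adjusted p = 0.0452). None of 19 cell death genes passed in the edgeR test, where 2.58% of all tested genes did, in DESeq2 or in limma-voom, and 3 had an unadjusted p under 0.05, a share close to the 15% of all tested genes. The smallest p among them was that of Eda2r, a receptor of the tumour necrosis factor family, with 28.0 ± 3.07 CPM in shSamd14 and 33.1 ± 2.43 CPM in control libraries (adjusted p = 0.198 in the edgeR test, n = 3 each).

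Of 26 genes of repair and metabolism, 3 fell in the edgeR test, or 11.5%, where 1.26% of all tested genes fell. Rrm2b, the p53-induced subunit of ribonucleotide reductase, fell to 0.723 of the control level (adjusted p = 0.00807), Pltp, a phospholipid transfer protein, to 0.490 (adjusted p = 0.0102) and Ddit4, an inhibitor of mTOR complex 1 that also responds to hypoxia, to 0.734 (adjusted p = 0.0408). Pltp was low, at 1.29 ± 0.0572 CPM in shSamd14 and 2.64 ± 0.140 CPM in control libraries (SD, n = 3 each), and it overlaps Ctsa on the opposite strand, so that its reads are uncertain, as are those of Rrm2b, which overlaps a pseudogene and an antisense gene. Without shSamd14 replicate 2, none of these 4 genes passed in the edgeR test (adjusted p = 0.0509 for Rrm2b, 0.0642 for Pltp, 0.138 for Ddit4 and 0.157 for Btg2). Btg2 also missed the threshold without shSamd14 replicate 1 (0.113), shSamd14 replicate 3 (0.0720), control replicate 1 (0.136) and control replicate 3 (0.0542), and Ddit4 without the last 3 of these (0.133, 0.136 and 0.0952). With all libraries kept, Btg2, Rrm2b and Ddit4 did not pass in limma on log2(TPM + 1) (adjusted p = 0.110, 0.0823 and 0.0737), and none of the 4 did on log2(TPM + 0.1). Btg2 and Ddit4 did not pass with upper quartile scaling in edgeR (0.0646 and 0.0556), nor did Btg2 in limma-voom (0.0531).

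Of 21 genes that act on p53, such as its kinases and ubiquitin ligases, 1 fell and none rose, where 1.26% of all tested genes fell. This was Atm, the kinase that signals DNA breaks, at 78.0 ± 0.381 CPM in shSamd14 and 95.1 ± 9.35 CPM in control libraries (SD, n = 3 each; edgeR adjusted p = 0.0489). With 1 library left out, Atm passed without control replicate 3 (adjusted p = 0.0102 in the edgeR test), the other 5 fits giving 0.0838 to 0.206, with shSamd14 replicate 1, 2 or 3 or control replicate 1 or 2 left out. With all libraries kept, Atm did not pass in limma-voom (adjusted p = 0.0880), in limma on log2(TPM + 1) (0.330) or log2(TPM + 0.1) (0.328), or in edgeR with length offsets (0.120). Of 22 cell cycle genes that are lowered when p53 raises p21, 1 fell, against the same 1.26%, and none rose: Rrm2, the other small subunit of ribonucleotide reductase, at 315 ± 21.9 CPM in shSamd14 and 419 ± 9.82 CPM in control libraries (adjusted p = 0.00421 in the edgeR test, n = 3 each). Rrm2 and Rrm2b were both lower, and both held CAAGTGT or AAGTGTA in the 3′ UTR, as did 57.3% of the genes that fell and 21.2% of those that did not pass. As these words had come out of genes that fell in these same data, their presence here is no independent evidence.

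Of 8 genes whose RNA Rbm38 is reported to bind, 6 were tested. None of the 6 passed in the edgeR test, where 2.58% of all tested genes did, in DESeq2 or in limma-voom. Only Mdm2 had an unadjusted p under 0.05 in the edgeR test, where 15% of all tested genes did. Counts over 6 genes cannot be told apart from these shares. Hif1a and Myc had log2 fold changes of -0.04 and -0.02, and Gdf15 was close to the detection limit at 0.485 ± 0.152 CPM in shSamd14 and 0.508 ± 0.149 CPM in control libraries (SD, n = 3 each). Rbm24, the closest relative of Rbm38, did not reach the filter, with at most 0.0871 CPM in any library. Of 34 tested genes of the Rbm family other than Rbm38, 1 rose and 1 fell in the edgeR test, where 1.32% of all tested genes rose and 1.26% fell. These were Rbm12b2 (1.33-fold, adjusted p = 0.0212) and Rbm12b1 (0.690-fold, adjusted p = 0.0278), named after their values were seen. They are near copies of each other whose reads can be split between them, and with 1 library left out the calls were partly lost. Rbm12b2 also overlaps Tmem67 on the opposite strand, so its reads are uncertain. Rbm12b2 missed the edgeR threshold without shSamd14 replicate 2 (adjusted p = 0.109), control replicate 2 (0.0842) and control replicate 3 (0.0661). Rbm12b1 missed it without shSamd14 replicate 1 (0.0684), shSamd14 replicate 2 (0.150), control replicate 1 (0.0628) and control replicate 2 (0.104). Neither passed in limma on log2(TPM + 1) (adjusted p = 0.117 for Rbm12b2 and 0.118 for Rbm12b1).

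**Figure D4:**
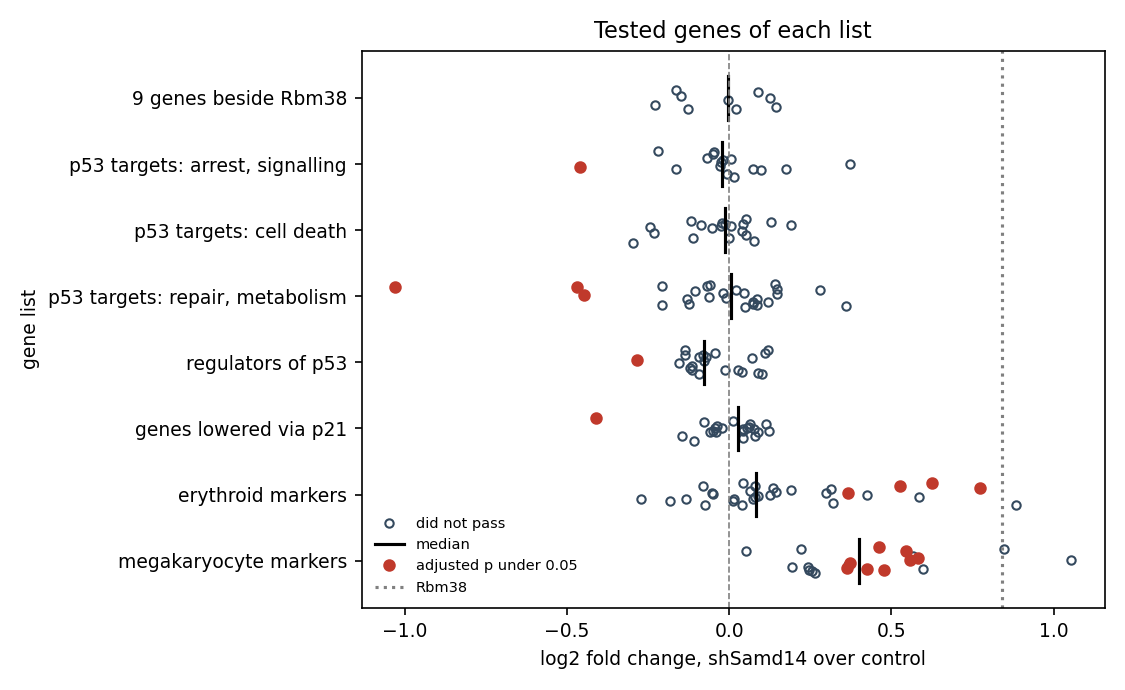
Log2 fold change, shSamd14 over control, of the tested genes in each list, with filled red points for an adjusted p under 0.05 in the edgeR test, a bar at each list's median and a dotted line at the value of Rbm38 (0.84). The 9 genes beside Rbm38 lie within 0.23 of 0, and the red points of the p53 lists all lie below 0.

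Rbm38 is also a gene of maturing red cells, so markers of the other cell types that the sorted cells could hold were read beside it. Of 30 erythroid markers 4 rose in the edgeR test, or 13.3%, where 1.32% of all tested genes did, and none fell, with a median log2 fold change of 0.08, and their summed level was 6012 to 6193 CPM in shSamd14 and 5654 to 6038 CPM in control libraries. Of 20 markers of megakaryocytes and platelets 8 rose, where 1.32% of all tested genes did, and none fell, with a median of 0.40 and sums of 1107 to 1173 CPM in shSamd14 and 899 to 1073 CPM in control libraries. None of these 50 markers was at 0 in all libraries. Leaving out 1 library gave 2 to 5 erythroid markers that rose, with 2 without shSamd14 replicate 1, control replicate 1 or control replicate 2. It gave 0 to 5 megakaryocyte markers that rose: 0 without shSamd14 replicate 2, 4 without shSamd14 replicate 1, 5 without shSamd14 replicate 3 or control replicate 1, and 3 without control replicate 2 or 3. With all libraries kept, limma-voom called 5 megakaryocyte and 2 erythroid markers higher, and limma on log2(TPM + 1) or log2(TPM + 0.1) called 3 and 2. DESeq2 called 4 erythroid markers higher and 1 lower, as did edgeR with no filter on low counts. None of 40 tested markers of neutrophils, macrophages, mast cells, lymphoid cells, hepatoblasts and endothelial cells passed in the edgeR test, in DESeq2 or in limma-voom, and 6 had an unadjusted p under 0.05, which is the same share as the 15% of all tested genes. Their summed level was 4905 to 7069 CPM in shSamd14 and 4325 to 6841 CPM in control libraries. C1qa, Timd4, Mcpt4 and Serpina1a of these lists were at 0 in all libraries. The part of the erythroid and megakaryocyte markers in the higher level of Rbm38 was not tested, and in bulk RNA more cells of a type and more RNA per cell cannot be told apart.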

How the data were processed

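Polyadenylated RNA of 6 libraries was analysed. Tools listed in the submitters' processing notes are RSEM 1.2.15, CASAVA 1.8.2 and Bowtie 1.0.1, with mm10 as build. The authors' tables hold, per the file headers, RSEM's deposited expected counts (reads shared between genes where they map to several), TPM and weighted transcript length. No annotation release, trimming step or strand setting is given in these sources. Symbols and positions came from GENCODE M21, which matched 23580 of 24376 IDs.

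Expected counts were rounded to whole numbers for edgeR 4.0.16 (R 4.3.3) (filterByExpr with minimum count 10 and minimum total 15, TMM factors from 0.986 to 1.02, robust quasi-likelihood test, two-sided, Benjamini-Hochberg over 12670 genes). CPM are TMM-scaled. Standard errors come from the log2 fold change and the F statistic. The main edgeR fit, edgeR with the replicate block, DESeq2, limma-voom and limma on log2 values with 1 added were run on simulated data. The other scaling factors, filters, length offsets, word searches and transcript lengths were not. Libraries of a group were checked for duplicates and differed beyond sampling noise (chi-square divided by genes, 5.73 to 12.2). Centred log2 CPM used a prior count of 2. UTRs of at least 50 bases were searched.

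The members and gene lists were chosen with earlier results of these data known. Named genes are the 10 members, Samd14, Cdkn1a, Bbc3, Bax, up to 4 genes past the threshold in each p53 list or the one with the smallest p, and the 5 genes closest to Rbm38. Alternatives used DESeq2 1.42.0 and limma 3.58.1, other scaling factors, other filters, length offsets, log2(TPM + 1) or log2(TPM + 0.1) where 3 libraries reached 1 TPM, a block for the replicate number and 1 library left out.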

Additional observations from a re-analysis of the deposited data

How the results depend on the processing

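In all 16 alternatives none of the 9 genes beside Rbm38 passed, and Rbm38 kept its direction, with log2 fold changes from 0.77 to 0.91. The count of genes called, 327 by the edgeR test, was 136 with limma on log2(TPM + 1) and 130 with log2(TPM + 0.1). It was 426 with DESeq2, 488 with no filter on low counts and 682 with the replicate block. With 1 library left out it was 128 to 283. The replicate numbers were not taken as pairing: same-numbered libraries deviated from their group means with correlations of -0.072, 0.153 and 0.272, and not every library correlated best with its own number. The block left 4 of the wider p53 targets called, and with it 11 megakaryocyte and 7 erythroid markers were higher and 1 erythroid marker was lower. The count of 4 wider p53 targets was 2 with upper quartile scaling, 1 with log2(TPM + 1), 0 with log2(TPM + 0.1), and 0 to 4 with 1 library left out. The number of members whose transcript lengths did not overlap was 0 to 1 with 1 library left out, and 1 without shSamd14 replicate 3 or control replicate 2 (Zmat3), control replicate 1 (Aen) or control replicate 3 (Sesn1). The cause was not tested for any of these. Values close to 0 turned their sign. With 1 library left out, the log2 fold change ran from -0.0177 to 0.0518 for Trp53, -0.052 to 0.0244 for Sesn1, -0.0892 to 0.0458 for Cdkn1a and -0.1111 to 0.1864 for Bbc3. With log2(TPM + 1), log2(TPM + 0.1) and length offsets, Sesn1 had 0.0192, 0.02 and 0.0095, and Bbc3 had -0.0066, -0.0071 and -0.0152. Cdkn1a had 0.0051 in both TPM fits. With a biological coefficient of variation of 7.52% and 3 libraries a group, small changes of single genes could be missed.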
